A study of Homo sapiens with 4 samples.

Results

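The genes described here are those of NRF2, glutathione and antioxidant defence: 41 genes, found by their Ensembl IDs among the 60617 IDs of a gene-level FPKM table. All 41 were in the table. They were chosen by name and sorted by role into 3 genes of NRF2 control, 8 NRF2 targets, 5 aldo-keto reductases, 14 genes of glutathione synthesis and transfer, 9 peroxidases and dismutases, and 2 ferritin chains. The study measured mRNA in T24 and 5637, 2 established human bladder carcinoma lines, by paired-end RNA sequencing after 6 h with or without protodioscin, a steroidal saponin of plants such as yam and fenugreek. The 4 groups were T24 with 60 µM protodioscin, T24 untreated, 5637 with 70 µM protodioscin and 5637 untreated, all grown in RPMI medium with heat-inactivated fetal bovine serum, penicillin and streptomycin. Each group had 1 library, the doses differed between the lines, and no vehicle is named for the untreated cells. The dose unit is that of the sample titles, since the treatment protocol prints the same numbers in mM. The comparison asks how these lines answer the compound in their mRNA.

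NRF2, the product of NFE2L2, is a transcription factor that cells hold at a low level through KEAP1, an adaptor that brings NRF2 to a ubiquitin ligase. Oxidants and electrophiles modify KEAP1, NRF2 then accumulates, pairs with a small MAF protein and binds antioxidant response elements near genes of glutathione synthesis, thioredoxin recycling, quinone reduction and iron storage. BACH1, a haem-binding repressor, competes for many of the same elements and holds down HMOX1 above all. NRF2 itself is controlled mainly at the level of protein stability, so the mRNA of its targets is the usual readout of its activity in a transcriptome.

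The core of the antioxidant response element was searched as TGAC, any 3 bases and GCA, on both strands, in RefSeq promoter windows (GRCh38.p14) that run from 250 bases before to 50 bases after a gene's annotated start. Of the 41 genes, 32 had such a window, and 8 of these 32 genes (25%) held a match. The windows are those of single annotated starts, of which several genes have more than 1. The windows of EPHX1, TXNRD1, GSTO1 and KEAP1 shown here lie downstream of the first base of the gene in GENCODE 29. The matches of GSTP1, GPX2 and MGST1 also lie inside the gene as GENCODE 29 gives it. By window, 8 of 50 windows of the member genes (16%) and 1118 of all 35116 windows (3.18%) held one. The 8 stretches are printed because they show which genes of the group carry the motif within these windows. A gene without a match here may hold one outside its window or have no window, and sequence outside the windows was not searched. Each is 30 bases long, 5′ to 3′ on the gene's own strand, with the match in capitals.
GCLM: ctacgatttcTGCTTAGTCAttgtcttcca
TXNRD1: agtggatttcTGCTTTGTCAttctgactct
KEAP1: cgcccggctcTGCTTAGTCAtggtgacctg
EPHX1: tgagattggcTGACTTGGCAggactgtgca
GSTP1: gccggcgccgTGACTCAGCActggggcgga
GSTO1: ggcggagggaTGACTGAGCAtttataactt
MGST1: ggggacatcgTGACAAAGCAaattgtctgg
GPX2: gacctgttttTGCTAAGTCAtcctggggat

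The matches of GCLM (chr1:93909446-93909475), TXNRD1 (chr12:104286919-104286948), KEAP1 (chr19:10502784-10502813) and GPX2 (chr14:64942849-64942878) read on the reverse strand of the gene. Those of EPHX1 (chr1:225825266-225825295), GSTP1 (chr11:67583736-67583765), GSTO1 (chr10:104254656-104254685) and MGST1 (chr12:16347135-16347164) read forward. KEAP1, the inhibitor of NRF2, and GCLM, a subunit of the first enzyme of glutathione synthesis, held the same 10 letters, with the first base 32 and 35 bases before the start. The GSTP1 match overlaps TGACTCA, the binding motif of AP-1. The match of MGST1 begins 31 bases after the start, and the other 7 lie before it. EPHX1 was picked with its treated minus untreated differences known, which are given below and were close to each other in the 2 lines. Of the other genes with a match, GCLM, TXNRD1 and GSTP1 were higher with protodioscin in both lines. KEAP1, GSTO1 and MGST1 went opposite ways in the lines, and GPX2 was too low to compare. A link between a match and a difference was not tested. EPHX1 has its match 78 bases before the start, and the 250 bases before that start (chr1:225825104-225825353, forward strand) are shown whole.
EPHX1 upstream: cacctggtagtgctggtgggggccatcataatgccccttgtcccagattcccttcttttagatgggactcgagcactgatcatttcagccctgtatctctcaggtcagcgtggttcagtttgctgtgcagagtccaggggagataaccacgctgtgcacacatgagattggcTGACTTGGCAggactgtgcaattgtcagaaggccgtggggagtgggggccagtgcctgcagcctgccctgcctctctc

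The sum of FPKM (fragments for each kilobase of transcript, relative to the size of the library) was 322821 in treated T24, 325580 in untreated T24, 348577 in treated 5637 and 338385 in untreated 5637. The table gives no number of reads, and the spacing of the lowest values put the depth of the libraries between 1.0 and 1.44 times that of untreated T24. The mitochondrially encoded share of the sum was 3.74% and 4.5% in treated and untreated T24, and 11.9% and 9.84% in treated and untreated 5637. Of 6 epithelial markers, the keratins were high in all 4 libraries. The summed level of the 6 was 1571 and 1972 FPKM in treated and untreated T24 and 3414 and 3959 FPKM in treated and untreated 5637, lower in the treated library of each line, and the part of this in the results below was not tested. Against the label of an epithelial line, CDH1 was at 0 and 0.016 FPKM and EPCAM at 2.35 and 2.09 FPKM in treated and untreated T24. In 5637, CDH1 was at 72.3 and 69.6 FPKM and EPCAM at 106 and 108 FPKM. Summed levels stayed at or below 0.858 FPKM for 4 leukocyte markers, 1.98 FPKM for 3 endothelial markers and 8.0 FPKM for 4 fibroblast markers, with DCN at 0 throughout.

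Most of the 41 genes were well expressed. At 1 FPKM or more stood 36 of them in each T24 library and 35 in each 5637 library, and 7 or 8 were at 100 FPKM or more in each library. FTH1, the ferritin heavy chain, was the highest of them, followed by mean level by FTL, PRDX1, GSTP1 and GPX1 in T24 and by GSTP1, TXN, PRDX1 and FTL in 5637. The 41 genes held 1.45% of the FPKM sum in treated T24 and 1.29% in untreated T24, against 0.878% in treated 5637 and 0.883% in untreated 5637. AKR1B10, AKR1C2, GSTM2, GPX2 and GPX3 were below 1 FPKM in all 4 libraries, and AKR1C1 was below it in both 5637 libraries. These genes were not compared in the lines in which they were low. In bulk RNA such as this, fewer cells of a type and less RNA per cell cannot be told apart.

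**Figure D1:**
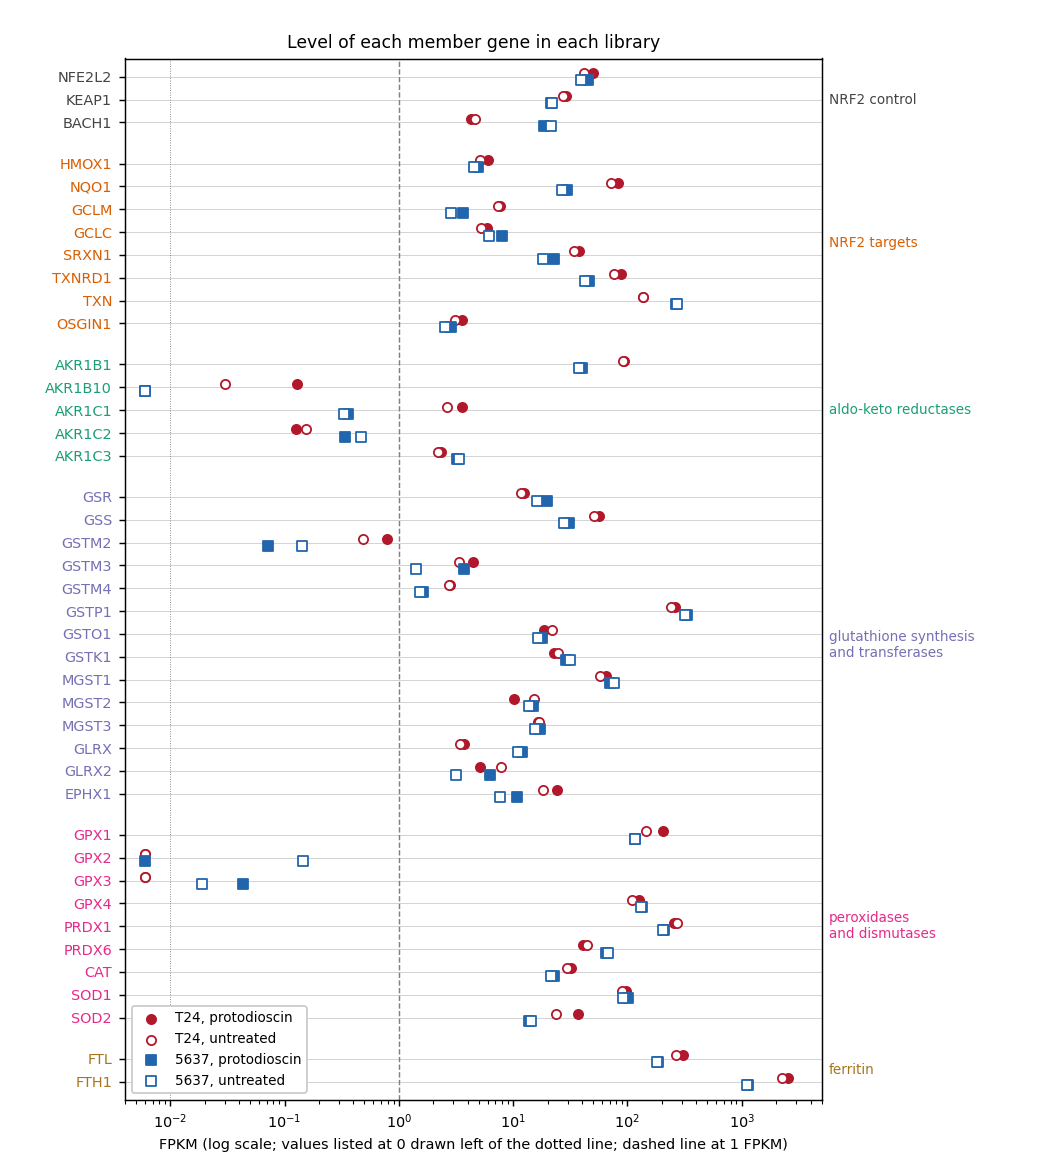
Level of each of the 41 genes in each library, in FPKM on a log scale, with circles for T24 and squares for 5637, filled for protodioscin and open for untreated. Most genes sit above 1 FPKM, the pair of circles and the pair of squares lie close together for most genes, and values listed at 0 are drawn left of the dotted line.

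With protodioscin, most of the measured genes were slightly higher than in untreated cells, and none differed by 1 or more in log2(FPKM + 1) in either line. GSTM3 in 5637, at 0.96, reached 1.16 under TPM scaling and 1.32 with a pseudocount of 0.1. In T24, 28 of 36 genes had a treated minus untreated difference above 0, where 56% of all 12193 genes compared did and 44% were below 0. In 5637, 26 of 35 were above 0, where 61.5% of all 12635 genes compared did and 38.5% were below 0. The median difference of the members, in log2(FPKM + 1), was 0.13 in T24 and 0.090 in 5637, against 0.025 and 0.043 over all genes compared in T24 and 5637. The split in 5637 moved with the scaling: under median-ratio scaling 21 of the 35 members were above 0, where 46.8% of all genes were, and under TPM scaling 23 were, where 51.4% of all genes were. With 1 library a group, these differences have no replicate check and no test.

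A difference of 0.3 or more upward was reached by 5 genes in T24, EPHX1, GSTM3, AKR1C1, GPX1 and SOD2, which compares with 5.1% of all genes. In the other direction, 2 genes of T24 were lower by 0.3 or more, MGST2 and GLRX2, where 6.13% of all genes were. In 5637, 5 genes were higher by 0.3 or more, GSTM3, GLRX2, EPHX1, GCLC and SRXN1, where 5.86% of all genes were, and 0 were lower by that size, where 4.63% of all genes were. By 1 or more, 0.205% of all genes were higher and 0.279% lower in T24, and 0.174% were higher and 0.214% lower in 5637. The genes past 0.3 came from glutathione transfer and detoxification in both lines, from aldo-keto reductases, peroxidases and dismutases in T24, and from NRF2 targets in 5637. Under median-ratio scaling the differences in 5637 of GCLC and SRXN1, 0.26 and 0.25, no longer reached 0.3.

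**Figure D2:**
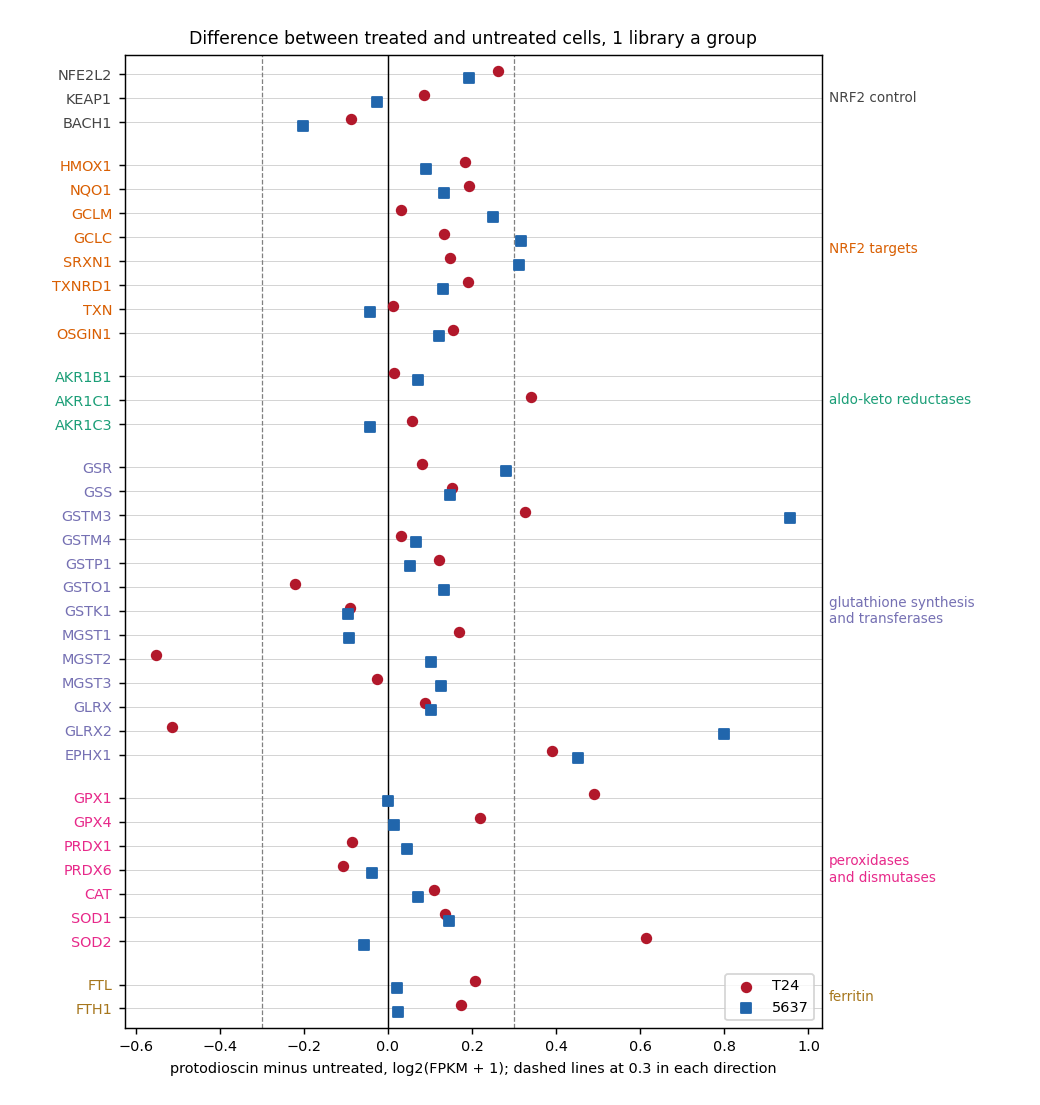
Difference between protodioscin and untreated cells in log2(FPKM + 1) for each gene compared, with circles for T24 and squares for 5637 and dashed lines at 0.3 in each direction. GSTM3 and EPHX1 lie past the line on the right in both lines, and GLRX2 lies past it on the left in T24 (-0.51) and on the right in 5637 (0.80).

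Among the genes of NRF2 control, NFE2L2 was slightly higher with protodioscin in both lines, and KEAP1 differed little. NFE2L2 (ENSG00000116044, chr2:177227595-177392697 in GENCODE 29 on GRCh38) was at 50.2 FPKM in treated and 41.7 FPKM in untreated T24, and at 44.8 FPKM in treated and 39.1 FPKM in untreated 5637. The differences on the log2 scale were 0.26 in T24 and 0.19 in 5637, and both treated libraries were above both untreated libraries. KEAP1 was at 29 and 27.3 FPKM in treated and untreated T24 and at 21.3 and 21.7 FPKM in treated and untreated 5637, differences of 0.086 and -0.026. BACH1 (ENSG00000156273, chr21:29194071-29630751) was at 4.31 and 4.64 FPKM in treated and untreated T24 and at 18.6 and 21.6 FPKM in treated and untreated 5637. It was 1 of 3 genes of the group that were below 0 in both lines, by -0.087 in T24 and -0.20 in 5637, and the lines did not overlap.

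The 8 NRF2 targets were above 0 in T24 without exception (quantile normalization put GCLM at -0.002), and 7 of 8 were above 0 in 5637, with TXN the other. Of all genes compared, 56% were above 0 in T24 and 61.5% in 5637. The medians of the 8 targets were 0.15 in T24 and 0.13 in 5637. The 22 other NRF2-linked targets taken up further below were less uniform. Of 20 compared in each line, 14 were above 0 in T24 and 11 in 5637, with medians of 0.05 and 0.06. Of 19 compared in both lines, 7 were above 0 in both, 3 were below 0 in both and 9 went opposite ways. Of all 11417 genes compared in both lines, 39.2% were above 0 in both. HMOX1, the haem oxygenase that is most strongly repressed by BACH1, was low in every library, at 6.00 and 5.16 FPKM in treated and untreated T24 and at 4.95 and 4.59 FPKM in treated and untreated 5637. Its differences were 0.18 in T24 and 0.090 in 5637, and the treated library was above the untreated one in each line. NQO1, a quinone reductase often used as the marker of NRF2 activity (ENSG00000181019, chr16:69706996-69726951), was at 82.3 and 71.9 FPKM in treated and untreated T24. In 5637 it was at 29.3 FPKM treated and 26.6 FPKM untreated, and the differences were 0.19 in T24 and 0.13 in 5637. The gap between the lines was many times that between treated and untreated cells.

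Glutamate-cysteine ligase, the first and rate-limiting enzyme of glutathione synthesis, has a catalytic subunit from GCLC and a modifier subunit from GCLM. GCLC (ENSG00000001084) was at 5.87 and 5.26 FPKM in treated and untreated T24 and at 7.91 and 6.15 FPKM in treated and untreated 5637, differences of 0.13 and 0.32. GCLM (ENSG00000023909) was at 7.6 and 7.41 FPKM in treated and untreated T24 and at 3.62 and 2.89 FPKM in treated and untreated 5637, differences of 0.032 and 0.25. Both subunits thus had the larger difference in 5637, as did SRXN1, while HMOX1, NQO1, TXNRD1 and OSGIN1 had the larger difference in T24. Line and dose cannot be told apart here, and no test of such a gap between the lines can be made with 1 library a group. SRXN1, sulfiredoxin, which repairs overoxidised peroxiredoxins, was at 37.6 and 33.8 FPKM in treated and untreated T24 and at 22.9 and 18.2 FPKM in treated and untreated 5637, differences of 0.15 and 0.31. Of its sequence, 84.6% of 75-base stretches also lie in transcripts of ENSG00000270299, an overlapping protein-coding gene ID listed at 0.028 to 0.056 FPKM.

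The thioredoxin system pairs thioredoxin, from TXN, with its reductase, from TXNRD1. TXNRD1 was at 88.0 and 77.0 FPKM in treated and untreated T24 and at 46.5 and 42.4 FPKM in treated and untreated 5637, differences of 0.19 and 0.13. TXN, in contrast, was at 137 and 136 FPKM in treated and untreated T24 and at 265 and 273 FPKM in treated and untreated 5637, differences of 0.013 and -0.043. The reductase was therefore the higher in T24 and its substrate the higher in 5637. OSGIN1, a growth inhibitor induced by oxidative stress, was at 3.54 and 3.08 FPKM in treated and untreated T24 and at 2.86 and 2.55 FPKM in treated and untreated 5637.

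Of the 5 aldo-keto reductases, NADPH-dependent enzymes that reduce aldehydes and ketones, AKR1B1 was abundant and the other 4 were low. AKR1B1 was at 92.9 and 91.9 FPKM in treated and untreated T24 and at 39.7 and 37.8 FPKM in treated and untreated 5637, differences of 0.015 and 0.071. AKR1C1 (ENSG00000187134) was at 3.60 and 2.63 FPKM in treated and untreated T24, a difference of 0.34, and at 0.362 and 0.332 FPKM in treated and untreated 5637. AKR1C3 was at 2.34 and 2.21 FPKM in treated and untreated T24 and at 3.25 and 3.37 FPKM in treated and untreated 5637. AKR1B10 reached at most 0.129 FPKM and was listed at 0 in both 5637 libraries, and AKR1C2 reached at most 0.464 FPKM. AKR1C1 shares 21.9% of its 75-base stretches with other genes, mostly AKR1C2, which shares 30.1%, so the division of reads between these copies is uncertain.

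In glutathione synthesis and transfer, 8 of 13 genes compared were above 0 in T24 and 11 of 13 in 5637, where 56% and 61.5% of all genes were. The medians of the 13 were 0.080 and 0.13. EPHX1, the microsomal epoxide hydrolase that turns reactive epoxides into diols (ENSG00000143819, chr1:225810092-225845563), was at 24.3 FPKM in treated and 18.3 FPKM in untreated T24. In 5637 it was at 10.9 FPKM treated and 7.69 FPKM untreated. Its differences were 0.39 in T24 and 0.45 in 5637, ratios of 1.33 and 1.41, so the lines differed in level but little in ratio. TMEM63A, whose exons overlap 28 bases of EPHX1 on the other strand, was at 7.41 and 6.76 FPKM in treated and untreated T24 and at 14.0 and 15.8 FPKM in treated and untreated 5637. The library kit named in the labels does not mark strand.

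GSTM3, a glutathione transferase of the mu class (ENSG00000134202, chr1:109733932-109741038), was at 4.49 and 3.38 FPKM in treated and untreated T24 and at 3.71 and 1.43 FPKM in treated and untreated 5637. The ratios were 1.33 in T24 and 2.60 in 5637, and the difference was 0.96 in 5637, with a range of 0.44 with a pseudocount of 5 to 1.32 with one of 0.1. The untreated 5637 library stood apart below the other 3. GSTM3 shares no 75-base stretch with another gene, whereas GSTM4 shares 10.1% and GSTM2 shares 14.2% with GSTM1 and other copies. GSTM4 was at 2.81 and 2.73 FPKM in treated and untreated T24 and at 1.64 and 1.52 FPKM in treated and untreated 5637, and GSTM2 did not exceed 0.789 FPKM.

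GLRX2 and MGST2 were the members lower by 0.3 or more with protodioscin in T24. GLRX2, a mitochondrial and nuclear glutaredoxin that reduces mixed disulphides of proteins with glutathione (ENSG00000023572, chr1:193090866-193106114), was at 5.17 FPKM in treated and 7.80 FPKM in untreated T24. In 5637 it was at 6.28 FPKM treated and 3.18 FPKM untreated. The differences were -0.51 in T24 and 0.80 in 5637, ratios of 0.662 and 1.97, and the untreated libraries of the lines were the highest and the lowest of the 4. Opposite differences of 0.3 or more were seen for GLRX2 alone among the 35 members compared in both lines, and for 0.911% of all 11417 genes. RO60, which overlaps 481 of its 6210 exon bases on the other strand, was at 8.25 and 7.81 FPKM in treated and untreated T24 and at 8.25 and 7.07 FPKM in treated and untreated 5637. MGST2, a microsomal transferase that also makes leukotriene C4, was at 10.1 and 15.2 FPKM in treated and untreated T24 and at 15.0 and 13.9 FPKM in treated and untreated 5637, differences of -0.55 and 0.10. The treated T24 library was thus the lowest for MGST2, while the other 3 lay close together.

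GSTP1, the pi-class transferase and the most abundant gene of this set, was at 261 and 240 FPKM in treated and untreated T24 and at 333 and 321 FPKM in treated and untreated 5637. Its differences were 0.12 and 0.053, and median-ratio scaling turned the second to -0.008. Glutathione synthetase, from GSS, was at 56.4 and 50.6 FPKM in treated and untreated T24 and at 31 and 27.9 FPKM in treated and untreated 5637, a difference of 0.15 in each line. Glutathione reductase, from GSR, which returns oxidised glutathione to its reduced form, was at 12.3 and 11.6 FPKM in treated and untreated T24 and at 19.8 and 16.1 FPKM in treated and untreated 5637, differences of 0.080 and 0.28. GCLC, GCLM, GSS and GSR, which make and recycle glutathione but were not a role group of their own, were each above 0 in both lines. Of all 11417 genes compared in both lines, 39.2% were above 0 in both. The difference of GCLM in T24 was only 0.032, and quantile normalization turned it below 0. GSR, GCLC and GCLM had the larger difference in 5637. MGST1 was at 65.2 and 57.9 FPKM in treated and untreated T24 and at 70.9 and 75.6 FPKM in treated and untreated 5637, differences of 0.17 and -0.092. GSTO1, GSTK1, MGST3 and GLRX, the other 4, had differences between -0.22 and 0.13, with GSTK1, a mitochondrial and peroxisomal transferase, below 0 in both lines at -0.091 in T24 and -0.096 in 5637.

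Of 7 peroxidases and dismutases compared, SOD2 and GPX1 were higher by 0.3 or more in T24 and none was in 5637, a gap between the lines that was not tested. SOD2, the mitochondrial manganese superoxide dismutase (ENSG00000112096, chr6:159669057-159745186), was at 37.1 FPKM in treated and 23.9 FPKM in untreated T24, a ratio of 1.55. In 5637 it was at 13.8 FPKM treated and 14.4 FPKM untreated, a ratio of 0.958. The difference of 0.61 in T24 was the largest upward one of that line among the members, and the difference in 5637 was -0.058. WTAP, which shares 298 exon bases with SOD2 on the other strand, was at 36.0 and 31.3 FPKM in treated and untreated T24 and at 30.7 FPKM in each 5637 library. A second ID that GENCODE 29 also names SOD2 did not exceed 0.209 FPKM.

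GPX1, the main cytosolic glutathione peroxidase (ENSG00000233276, chr3:49357171-49358600), was at 203 FPKM in treated and 144 FPKM in untreated T24, and at 116 FPKM in each 5637 library. Its difference was 0.49 in T24, a ratio of 1.41, and the treated T24 library stood above the other 3. GPX1 shares 8.0% of its 75-base stretches with the pseudogene GPX1P1, listed at 18.2 to 24.1 FPKM. GPX4, the peroxidase that reduces lipid hydroperoxides in membranes and holds back ferroptosis, was at 126 and 109 FPKM in treated and untreated T24 and at 133 and 132 FPKM in treated and untreated 5637. The difference of GPX4 was 0.22 in T24 and 0.013 in 5637, and median-ratio scaling put the difference in 5637 at -0.048. GPX2 was listed at 0 except for 0.144 FPKM in untreated 5637, and GPX3, the plasma form, did not exceed 0.044 FPKM.

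The remaining antioxidant enzymes differed by at most 0.15 in log2(FPKM + 1) in both lines. SOD1, the cytosolic copper-zinc dismutase, was at 97.9 and 88.9 FPKM in treated and untreated T24 and at 102 and 91.8 FPKM in treated and untreated 5637, differences of 0.14 and 0.15. Catalase, from CAT, was at 32.3 and 29.9 FPKM in treated and untreated T24 and at 22.7 and 21.5 FPKM in treated and untreated 5637. The peroxiredoxins PRDX1 and PRDX6, which remove peroxides with the help of thioredoxin and of glutathione, had differences of -0.086 and -0.11 in T24. In 5637 their differences were 0.045 for PRDX1, which median-ratio scaling turned to -0.016, and -0.039 for PRDX6. PRDX1 was at 256 and 271 FPKM in treated and untreated T24 and at 210 and 204 FPKM in treated and untreated 5637.

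Ferritin stores iron and keeps it from reacting with peroxides. FTH1 (ENSG00000167996, chr11:61959718-61967660) was at 2523 FPKM in treated and 2238 FPKM in untreated T24, and at 1133 FPKM in treated and 1114 FPKM in untreated 5637. It ranked as number 3 and 5 of all genes in treated and untreated T24, and as number 22 and 24 in treated and untreated 5637. FTL, the light chain, was at 305 and 264 FPKM in treated and untreated T24 and at 185 and 182 FPKM in treated and untreated 5637. The differences in T24 were 0.17 for FTH1 and 0.21 for FTL. In 5637 they were 0.024 and 0.021, and both turned below 0 under TPM scaling (-0.018 and -0.022) and under median-ratio scaling. FTH1 shares 13.7% of its 75-base stretches with 12 other genes, mostly its pseudogenes, which were listed at 8.85 to 19.7 FPKM in sum.

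Compared across the lines, 21 of 35 genes were above 0 in both, where 39.2% of all 11417 genes compared in both lines were. That count was 17 under median-ratio scaling, where 29.7% of all genes were above 0 in both. BACH1, GSTK1 and PRDX6 were the 3 below 0 in both, where 19.8% of all genes were, and the other 11 went opposite ways. EPHX1 and GSTM3 were higher by 0.3 or more in both lines, which 0.604% of all genes were, and 0 members were lower by that size in both, where 0.736% of all genes were. With a pseudocount of 5 (0.18 for GSTM3 in T24) and under quantile normalization (just under 0.3), EPHX1 alone reached that size in both lines. As a description, the differences of the 35 genes in T24 and in 5637 had a Pearson correlation of -0.062 and a Spearman correlation of 0.14 across genes, and without GLRX2 these were 0.23 and 0.23. Over all 11417 genes they were 0.12 and 0.19. Genes are not independent replicates, and the 2 values of each gene come from different libraries at different doses.

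**Figure D3:**
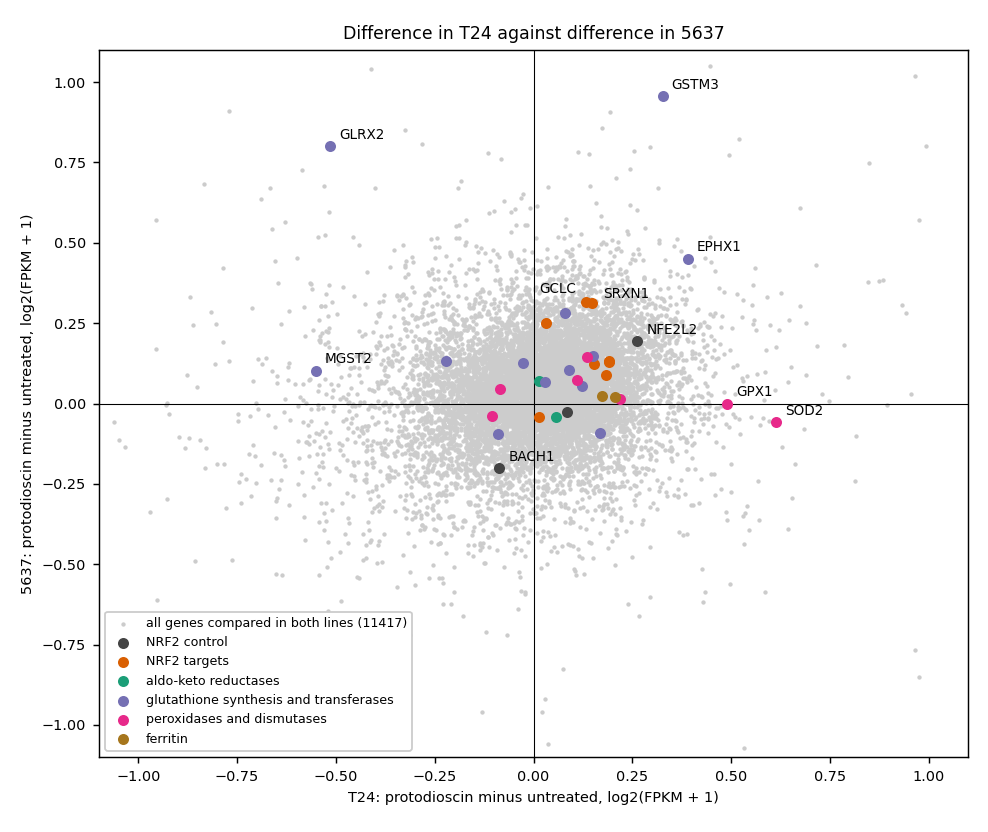
Treated minus untreated difference in log2(FPKM + 1), T24 on the horizontal and 5637 on the vertical axis, with grey points for all 11417 genes compared in both lines (51 lie outside the axes) and coloured points for the member genes by role. GSTM3 and EPHX1 lie at the upper right, GLRX2 at the upper left, and SOD2 and GPX1 lie at the right near 0 on the vertical axis.

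Treatment was tested over both lines with limma, with cell line as a second term, on the 12893 genes that reached 1 FPKM in 2 or more libraries, of which 36 were members. No member passed a Benjamini-Hochberg adjusted p of 0.05, and neither did any other gene (0% called). At an unadjusted p below 0.05 stood 6 members, all of them higher with protodioscin, where 5.58% of all genes were higher and 3.94% lower at that level. EPHX1 had the smallest p of the members: it was 0.42 ± 0.075 (SE) higher on the log2 scale, with a limma p of 0.00137 and an adjusted p of 0.468, and was higher in 2 of 2 lines. GSTM3 followed at 0.64 ± 0.164 (SE), with a limma p of 0.00781 and an adjusted p of 0.482. The others were NFE2L2 at 0.23, SRXN1 at 0.23, TXNRD1 at 0.16 and NQO1 at 0.16, with limma adjusted p between 0.482 and 0.515, each higher in 2 of 2 lines. So the 6 genes that came nearest in this fit were the NRF2 gene itself, 3 of its targets, an epoxide hydrolase and a glutathione transferase, and the fit calls none of them. Under median-ratio scaling the coefficients of all 6 were smaller. They were 0.39 for EPHX1, 0.62 for GSTM3, 0.19 for NFE2L2, 0.20 for SRXN1, 0.13 for TXNRD1 and 0.13 for NQO1. Over the alternatives that kept the cell line term the adjusted p of EPHX1 ran between 0.313 and 0.80. With line and treatment as terms, 4 libraries left 1 residual degree of freedom. It holds the gap between the treated minus untreated differences of the 2 lines, which limma moderates with its prior. GLRX2, at -0.51 in T24 and 0.80 in 5637, had an SE of 0.284. EPHX1, at 0.39 in T24 and 0.45 in 5637, had an SE of 0.075. A p-value of this fit is measured against that gap together with the prior, which has 4.99 degrees of freedom beside the 1 of the gap. For a gene with a small gap, such as EPHX1, the SE rests mostly on the prior taken over all genes. The gap itself cannot separate line, dose and technical spread. Nothing says the cultures were separate.

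Many of the genes differed between the lines, as did most of all genes in the fit. In the same fit, 27 of the 36 genes differed between T24 and 5637 at an adjusted p below 0.05, 17 higher and 10 lower in T24, where 68.9% of all genes differed, 35.1% higher and 33.9% lower. AKR1C1 was in the fit only through T24, where it is high, so it had to differ and no test of it is given. Of the 35 genes that reached 1 FPKM in each line, 26 were called, 16 higher and 10 lower in T24, where 65.2% of all 11417 such genes were called. Under TPM scaling the split of the 36 was 20 higher and 8 lower. By 1 or more on the log2 scale, 6 of the 35 were higher in T24, where 6.39% of all such genes were, and 2 were lower, where 6.03% were. With a pseudocount of 5 these counts were 3 and 1, NQO1, AKR1B1 and FTH1 on the higher side and BACH1 on the lower. Each line and treatment is 1 library, so the test compares these libraries.

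T24 had more NQO1, AKR1B1, GCLM, EPHX1, SOD2 and FTH1. NQO1 averaged 77.1 FPKM in T24 and 28 FPKM in 5637, a coefficient of 1.43 ± 0.062 (SE) with a limma adjusted p of 1.10e-05. AKR1B1 averaged 92.4 FPKM in T24 and 38.8 FPKM in 5637, 1.23 higher on the log2 scale (limma adjusted p of 1.74e-05). EPHX1 averaged 21.3 FPKM in T24 and 9.28 FPKM in 5637, a coefficient of 1.12, and FTH1 had a coefficient of 1.08. GCLM at 1.0 and SOD2 at 1.02 were the other 2, the second of them with its treated T24 library far above its untreated one. TXNRD1 (0.88), GSS (0.84), SRXN1 (0.78), FTL (0.63), GPX1 (0.56), GSTM4 (0.55), GSTM3 (0.54), CAT (0.47), KEAP1 (0.37) and PRDX1 (0.35) were also called higher in T24, all by less than 1.

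In 5637, BACH1 and GLRX stood out on the high side. BACH1 averaged 4.48 FPKM in T24 and 20.1 FPKM in 5637, a coefficient of -1.94 ± 0.084 (SE) with a limma adjusted p of 1.13e-05. GLRX, the cytosolic glutaredoxin, was at 3.69 and 3.41 FPKM in treated and untreated T24 and at 12.0 and 11.1 FPKM in treated and untreated 5637, a coefficient of -1.46 with a limma adjusted p of 3.93e-05. TXN, the third, averaged 136 FPKM in T24 and 269 FPKM in 5637, a coefficient of -0.97 with a limma adjusted p of 3.92e-05. Called lower in T24 by smaller amounts were PRDX6 (-0.62), GSR (-0.54), AKR1C3 (-0.40), GSTP1 (-0.38), GSTK1 (-0.34), GCLC (-0.28) and MGST1 (-0.25). The subunits of glutamate-cysteine ligase thus went opposite ways between the lines, with GCLM higher and GCLC lower in T24, though the call of GCLC was lost under TPM scaling (limma adjusted p of 0.0897).

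Not called between the lines were NFE2L2, HMOX1, OSGIN1, GSTO1, MGST2, MGST3, GLRX2, GPX4 and SOD1. NFE2L2 averaged 45.9 FPKM in T24 and 41.9 FPKM in 5637, a coefficient of 0.12 ± 0.062 (SE) with a limma adjusted p of 0.121. SOD1 averaged 93.4 FPKM in T24 and 96.7 FPKM in 5637. GLRX2 had the widest standard error of the members, 0.284, with a coefficient of 0.42.

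**Figure D4:**
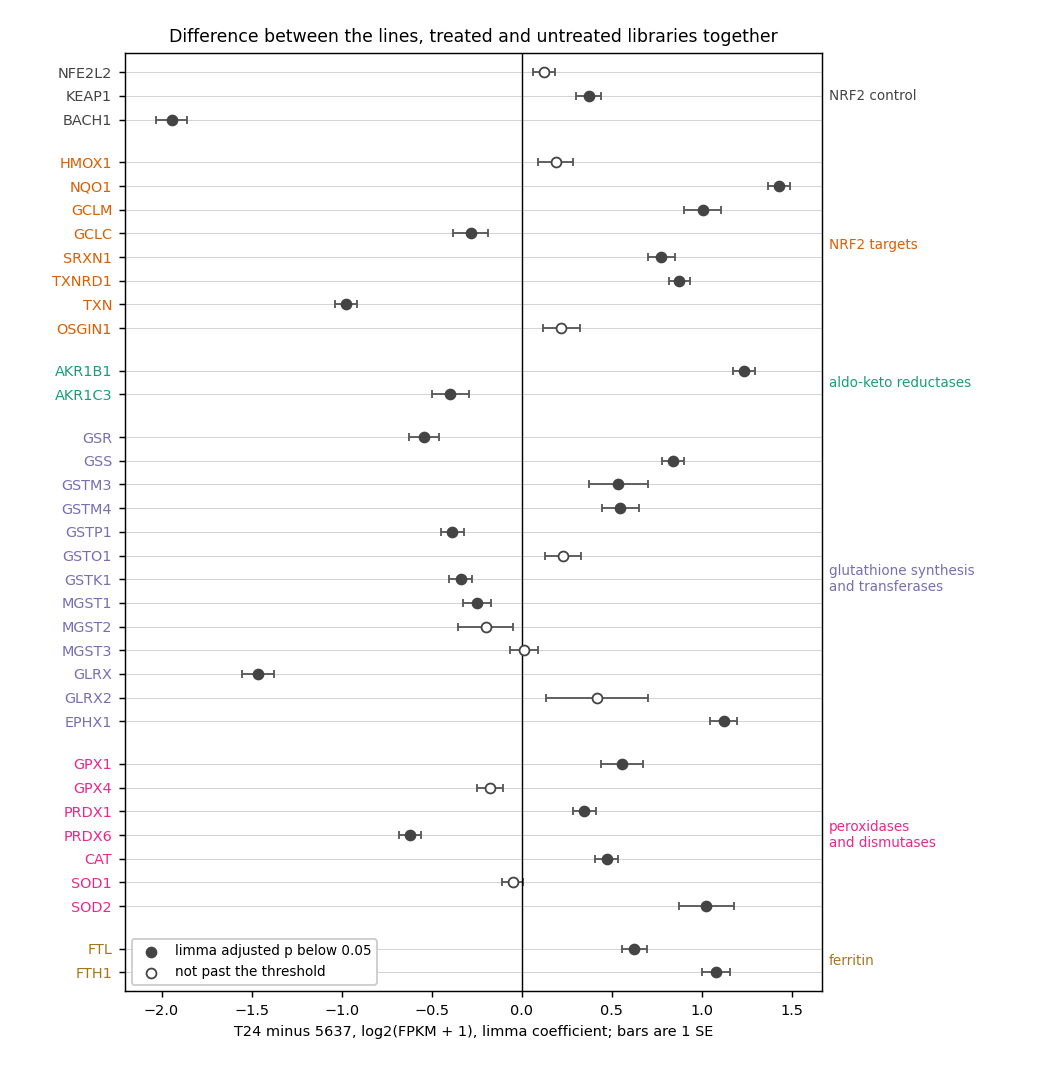
Difference between T24 and 5637 in log2(FPKM + 1), averaged over treated and untreated libraries, for the 35 genes in the limma fit that reached 1 FPKM in each line, with bars of 1 SE and filled points where the adjusted p was below 0.05. BACH1 and GLRX lie farthest to the left at -1.94 and -1.46, and NQO1 and AKR1B1 farthest to the right at 1.43 and 1.23.

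A further 58 genes of the pathway were set beside the 41: other regulators of NRF2, other linked targets, and other redox enzymes. Of the 49 compared in each line, 30 were above 0 in T24 and 30 in 5637, where 56% and 61.5% of all genes were. The median differences of the 49 were 0.034 and 0.057. In T24, 7 were higher and 3 lower by 0.3 or more, where 5.1% and 6.13% of all genes were. In 5637, 3 were higher and 0 lower by that size, where 5.86% and 4.63% of all genes were. In both lines, 0 passed 0.3 one way, where 0.604% of all genes were higher and 0.736% lower. The limma fit called 0 of 52 for treatment, with 8 higher and 2 lower at an unadjusted p below 0.05, where 5.58% and 3.94% of all genes were. Of the 52, 6 reached 1 FPKM in 1 line only, and of the other 46 the fit called 36 between the lines, 23 higher and 13 lower in T24, beside the 65.2% of all genes given above. In their RefSeq windows, 1 of 45 genes held a match to the same motif (2.22%), CBR1.

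Among the most abundant of them, SQSTM1, whose protein p62 draws KEAP1 into autophagy, was at 99.9 and 80.5 FPKM in treated and untreated T24 and at 66.1 and 59.7 FPKM in treated and untreated 5637, differences of 0.31 and 0.14. NFE2L1, a relative of NRF2, was at 115 and 106 FPKM in treated and untreated T24 and at 97.1 and 93.3 FPKM in treated and untreated 5637. PGD, the second NADPH-making enzyme of the pentose phosphate pathway, was at 70.0 and 61.9 FPKM in treated and untreated T24 and at 80.8 and 72.0 FPKM in treated and untreated 5637, differences of 0.18 and 0.16. MAFF, TALDO1, TKT, PRDX2, PRDX4 and PRDX5 had differences between -0.050 and 0.20.

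UGT1A6, GSTM1, OPLAH and ALDH3A1 reached 1 FPKM in 1 line only and entered the fit through the line where they are high, so their levels are given as a description, with no test. ALDH3A1, an aldehyde dehydrogenase, averaged 5.88 FPKM in T24 and 0.358 FPKM in 5637. GSTM1 averaged 5.79 FPKM and OPLAH 4.39 FPKM in T24, and both were listed at 0 in 5637. UGT1A6, a glucuronosyltransferase, went the other way, with 0.561 FPKM in T24 and 20.9 FPKM in 5637, and 40.2% of its 75-base stretches are shared with the other UGT1A genes, which use the same last exons.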

How the data were processed

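The authors deposited gene-level FPKM for 4 libraries in 1 table. Per the labels' protocols, total RNA was taken with a Qiagen RNeasy kit and made into Illumina TruSeq RNA v2 libraries, read as 150-base pairs. Per the submitters' processing notes, Trimmomatic, HISAT2, StringTie and the build GRCh38 were used. Versions and settings were not given in the sources used here. StringTie estimates how reads divide over transcripts that overlap.

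Values were analysed as log2(FPKM + 1), which understates differences of low genes. A gene was compared within a line where either of its 2 libraries reached 1 FPKM, with 0.3 and 1 as sizes and no test. Over all 4 libraries, limma 3.58.1 in R 4.3.3 was run with line and treatment as terms, a trended prior variance, 1 residual degree of freedom and a prior of 4.99, with Benjamini-Hochberg adjustment over 12893 genes and a threshold of 0.05. It was tested on simulated data in which a changed gene changed alike in both lines. There the treatment test recovered 28.6% of changes of 0.3, 72.6% of changes of 0.5 and 98.8% of changes of 1 on the log2 scale. Most differences of the members were below 0.3, so the absence of calls says little about changes of that size. Exon overlap and shared 75-base stretches came from GENCODE 29 (bedtools 2.31.1), and promoter windows from RefSeq. Members and gene lists were chosen with earlier results of these data known. The text names all members, genes that overlap them where their values bear on the member, and, of the other pathway genes, the 3 most abundant of each group and, of those called, the 4 with the largest coefficients, which all proved to have entered the fit through 1 line only. SOD2 was taken by its longer GENCODE 29 ID. FPKM gives no read counts, so precision of single values is not known beyond the value of 1 read on 1 kb, 0.0171 to 0.0246 FPKM. The alternatives tried were other pseudocounts, filters and scalings, other limma designs, and leaving out exon-sharing genes. That last alternative dropped only genes whose exons overlap a neighbour on their own strand. Genes with overlap on the other strand alone stayed in, so that kind of overlap was not tested. Among the members these were EPHX1, GSTM3, GLRX2, MGST2, NQO1, PRDX1 and FTH1.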

Additional observations from a re-analysis of the deposited data

Results flagged for a closer look

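GLRX2 and GLRX3, both glutaredoxin genes, had differences of opposite sign in the lines, each by 0.3 or more on the log2 scale. GLRX2 was at -0.51 in T24 and at 0.80 in 5637. GLRX3, a cytosolic monothiol glutaredoxin that carries iron-sulphur clusters and was named after its values were seen, was at -0.53 in T24 and at 0.68 in 5637. GLRX3 was at 14.1 and 20.8 FPKM in treated and untreated T24 and at 25.1 and 15.3 FPKM in treated and untreated 5637. The other glutaredoxins, named after their values were seen, were above 0 in both lines, GLRX at 0.089 in T24 and 0.10 in 5637, and GLRX5 at 0.11 and 0.15. The difference between the lines was not tested, since each group had 1 library and the doses differed, and the same size of opposite differences was seen for 0.911% of all genes.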

How the results depend on the processing

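With 1 library a group, the only pairing possible was by cell line. Cell line was a term of the fit, so treated and untreated libraries were set against each other within a line, and without that term the count of treatment calls was also 0. No replicate could be left out with 1 library a group. The direction counts in each line, the 0 calls for treatment and the count of calls between the lines (22 to 29, of 27 in the fit as reported) kept within 1.5 times under every alternative run. That margin is wide for the direction counts. Under median-ratio scaling the count in 5637 fell from 26 to 21 of 35, and the median of the members there fell from 0.090 to 0.039. The count of members higher by 0.3 or more in T24, 5 as reported, was 3 with a pseudocount of 5 and 3 with a filter at 5 FPKM; with that pseudocount AKR1C1 was at 0.17 and GSTM3 at 0.18. In 5637 the same count, also 5, was 3 with a pseudocount of 5, 3 under median-ratio scaling, 3 under quantile normalization and 3 without exon-sharing genes. MGST3 between the lines turned to -0.020 under quantile normalization, and SOD1 between the lines turned to 0.033 under TPM scaling, neither of them called. Of the calls between the lines, GCLC, AKR1C3, GSTM3, GSTM4, MGST1 and GPX1 were lost when genes were not filtered, GCLC and MGST1 also under TPM scaling, MGST1 also with no trend in the prior variance (limma adjusted p of 0.0730), and GCLC and GSTM3 also without the treatment term. NFE2L2, OSGIN1, GSTO1 and GPX4 gained a call under TPM scaling or quantile normalization. The cause was not tested. AKR1B10, AKR1C2, GSTM2, GPX2 and GPX3 were left out by the 1 FPKM minimum, and the table gives no read numbers from which a depth limit could be set.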
